A study of Mus musculus with 6 samples.

Results

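The 10 genes described here encode checkpoint and costimulatory receptors and surface ectonucleotidases of regulatory T (Treg) cells: Ctla4, Pdcd1, Lag3, Havcr2, Tigit, Klrg1, Icos, Cd28, Entpd1 and Nt5e. They were set by Ensembl gene identifier (ID). The rule used no measured values, but it was made with earlier results of these data known. All 10 IDs were found among the 54446 gene IDs listed and among the 15615 genes with enough reads to test. The files do not pair IDs with symbols, so the 10 names rest on the list of IDs that defines the set. The libraries come from wild-type (WT) mice carrying a Foxp3-GFP reporter, in which subcutaneous B16F10 tumours, a mouse melanoma line, were grown. Treg cells, gated as live cells positive for CD45, CD4 and GFP, were taken from the tumours and lysed, and YTHDF2 with its bound RNA was precipitated with an anti-YTHDF2 antibody over 4 hours and 6 washes. Of each lysate 10% was kept without antibody as the Input. The groups are thus 3 immunoprecipitation (IP) libraries and 3 Input libraries of the same genotype, tissue and sort, made with a stranded total RNA kit. Strain, age and sex of the mice, and whether a replicate was 1 animal or a pool, were not given in the sources used here, so the p-values reflect library-to-library spread alone, and this may be purely technical. A precipitation with a control antibody, or from cells without YTHDF2, was not analysed here, so "depleted" below means a smaller share of the IP reads than of the Input reads.

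YTHDF2 is a cytoplasmic reader of N6-methyladenosine (m6A) in mRNA and brings bound transcripts to deadenylation and decay. Checkpoint receptors damp T cell activation: CTLA-4 competes with CD28 for the ligands CD80 and CD86, and PD-1, LAG-3, TIM-3, TIGIT and KLRG1 inhibit on binding ligands such as PD-L1, MHC class II, galectin-9, CD155 and cadherins. CD28 and ICOS are costimulatory receptors of the same immunoglobulin family as CTLA-4. CD39 and CD73, encoded by Entpd1 and Nt5e, turn extracellular ATP into adenosine in consecutive steps, which suppresses neighbouring T cells. Treg cells in tumours are known to carry many of these proteins at high level.

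In the mouse build GRCm38.p6 (the assembly behind mm10), all 10 are annotated by RefSeq as protein-coding. Cd28 (ENSMUSG00000026012, chromosome 1, 60746388 to 60773359), Ctla4 (ENSMUSG00000026011, 60909025 to 60915832) and Icos (ENSMUSG00000026009, 60960773 to 61000322) lie side by side, with 135.7 kb between Cd28 and Ctla4 and 44.9 kb between Ctla4 and Icos. Pdcd1 lies farther along chromosome 1 (ENSMUSG00000026285, 94038305 to 94052553). Klrg1 (ENSMUSG00000030114, 122270596 to 122282833) and Lag3 (ENSMUSG00000030124, 124904359 to 124912434) are on chromosome 6. Havcr2 is on chromosome 11 (ENSMUSG00000020399, 46454931 to 46481255), Tigit on chromosome 16 (ENSMUSG00000071552, 43626137 to 43665125), Entpd1 on chromosome 19 (ENSMUSG00000048120, 40612366 to 40741602) and Nt5e on chromosome 9 (ENSMUSG00000032420, 88327609 to 88372089). In that annotation 2 other genes, Zbtb20 and Mir568, overlap Tigit. A lncRNA and 2 pseudogenes overlap Entpd1. The strand setting of the authors' counting is not given in the sources used here, so reads of these neighbours cannot be fully told apart from those of Tigit and Entpd1. No other RefSeq gene overlaps the remaining 8.

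The IP libraries held 6847731 to 8465453 gene-assigned reads and the Input libraries 10029733 to 14704617. Of all reads in a file, 71.7% ± 0.434 (SD, n = 3) lay outside annotated features in the IP, compared with 50.4% ± 1.08 (SD, n = 3) for Input files. At least 1 read was found for 14200 to 19991 and 26250 to 33344 gene IDs per library. Treg markers and markers of other cell types could not be checked, because none of their symbols could be matched to an ID. The share of the 10 genes together among gene-assigned reads was 0.278% ± 0.0692 (SD, n = 3) for IP libraries, compared with 0.376% ± 0.0726 (SD, n = 3) for Input libraries. The fewest reads of any of them in a library were 109 and the most 23747, so counting error was small for all but the lowest values.

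The comparison of IP with Input asks which of these transcripts were recovered with YTHDF2. None of the 10 was enriched. Lag3, Havcr2, Tigit and Klrg1, all inhibitory receptors, were depleted in the IP, and Ctla4, Pdcd1, Icos, Cd28, Entpd1 and Nt5e did not pass the test. A gene was called at a Benjamini-Hochberg adjusted p under 0.05 over all tested genes, in edgeR's quasi-likelihood test. Across all 15615 tested genes this rule called 10.4%, with 4.33% enriched and 6.11% depleted, against 0 enriched and 4 depleted of the 10. Calls were more frequent where reads were many. Klrg1 was the member with the lowest mean, at 52.8 CPM. CPM are reads per 1000000 reads of the tested genes, with the library size scaled by TMM. Of the 3764 genes with a mean at or above that of Klrg1, 15.1% were enriched and 17.2% depleted. Log2 fold changes (IP over Input) had a median of -0.74 for the 10 genes, -0.12 for all tested genes and 0.11 for those 3764 genes. Without adjustment 6 of the 10 had a p under 0.05 in edgeR's test, the 4 depleted genes together with Pdcd1 and Ctla4. All 6 had negative log2 fold changes. In the same test p was under 0.05 for 3741 of all 15615 tested genes and for 2001 of those 3764 genes. For the genes that did not pass, the missing call does not show that IP and Input levels were equal. The test did not pair IP and Input libraries of the same lysate. The labels do not say that equal replicate numbers share a lysate. With a replicate block, as an alternative, 7 of the 10 were depleted, against 7.01% of all tested genes. The count of 4 depleted genes moved with the scaling, to 1 with upper quartile factors, 2 with total counts and 7 with library sizes from all reads in the file. The share of all tested genes depleted was 5.13%, 5.60% and 12.5% in these settings. With 1 library left out, the share of tested genes depleted follows each count of the 10 in brackets. The count was 2 without IP replicate 1 (4.62%) or 2 (4.62%) and 4 without IP replicate 3 (8.73%). It was 6 without Input replicate 1 (3.98%) and 1 without Input replicate 2 (3.56%) or 3 (3.26%). In each of these settings 0 of the 10 were enriched.

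Levels below are in CPM. They compare libraries for 1 gene and are not divided by transcript length, so the genes are not ranked by level.

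**Figure D1:**
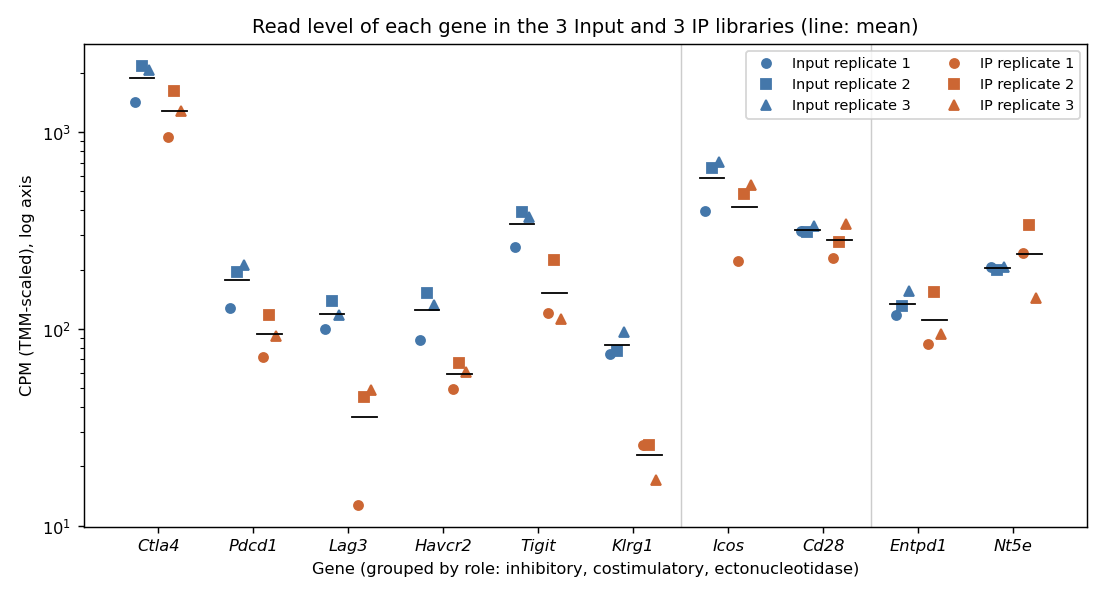
Level of each gene in CPM (TMM-scaled, log axis) in the 3 Input and 3 IP libraries, 1 point per library and a line at each group's mean. The IP points lie below all Input points for Pdcd1, Lag3, Havcr2, Tigit and Klrg1, and the groups overlap for Ctla4, Icos, Cd28, Entpd1 and Nt5e.

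Klrg1, a lectin-like inhibitory receptor that marks terminally differentiated T cells, showed the lowest fold change of the 10. Its level was 74.8, 77.2 and 96.2 CPM in Input replicates 1, 2 and 3, and 25.8, 25.7 and 16.98 CPM in IP replicates 1, 2 and 3. Every IP library was thus far below every Input library. On the log2 scale the gene stood at -1.86 ± 0.31 (SE, n = 3 per group) in the IP relative to the Input, so that the Input level was 3.63 times that of the IP (95% confidence interval 2.25 to 5.86). EdgeR's test gave an adjusted p of 0.00486. The call held in all 16 alternative settings tried, with adjusted p-values from 1.96e-07 to 0.0309. Of all tested genes, 13.6% had a lower log2 fold change. For the other depleted genes this share was larger, at 15.0% for Lag3, 23.5% for Tigit and 25.1% for Havcr2.

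Lag3, which binds MHC class II and resembles CD4, had 99.3, 138 and 118 CPM in Input replicates 1, 2 and 3. In the IP it had 12.8, 45.0 and 48.9 CPM. The groups did not overlap, and the IP libraries differed widely among themselves: IP replicate 1, with 109 reads (95% exact Poisson interval 89.5 to 131, or 10.5 to 15.4 CPM, for counting error only), lay well below the other two. Its log2 fold change came to -1.74 ± 0.45 (SE; edgeR's adjusted p = 0.0386), an Input level 3.33 times that of the IP (95% confidence interval 1.65 to 6.72). Without IP replicate 1 it was -1.38. The call was lost without IP replicate 2 (adjusted p = 0.0799), Input replicate 2 (0.0911) or Input replicate 3 (0.0918), and with upper quartile factors (0.0601) or total counts (0.0523).

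Tigit, the immunoglobulin receptor for CD155, had 259, 392 and 368 CPM in the Input and 120, 224 and 112 CPM in the IP, in the order of replicates 1, 2 and 3. The highest IP value, in replicate 2, lay below the lowest Input value, in replicate 1. A log2 fold change of -1.16 ± 0.29 (SE; edgeR's adjusted p = 0.0322) resulted, an Input level 2.23 times that of the IP (95% confidence interval 1.43 to 3.50). The call was lost without IP replicate 1 (adjusted p = 0.117), Input replicate 2 (0.0580) or Input replicate 3 (0.0694), and with upper quartile factors (0.0588).

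Havcr2, which encodes TIM-3, had 88.1, 152 and 132 CPM in the Input and 49.3, 66.9 and 60.7 CPM in the IP. The groups did not overlap, and the IP values were the closest together of all 10 genes, with a coefficient of variation of 15.2%. This corresponds to a log2 fold change of -1.07 ± 0.27 (SE; edgeR's adjusted p = 0.0330), an IP level 0.475 times that of the Input (95% confidence interval 0.313 to 0.721). This call was lost without IP replicate 1 (adjusted p = 0.0933), IP replicate 2 (0.0555), Input replicate 2 (0.151) or Input replicate 3 (0.116), and with upper quartile factors (0.0704) or total counts (0.0518).

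Pdcd1, encoding PD-1, had 128, 195 and 211 CPM in the Input and 71.8, 117 and 91.9 CPM in the IP. Here too all IP values lay below all Input values, by a small margin between IP replicate 2 and Input replicate 1. With a log2 fold change of -0.93 ± 0.26 (SE), its adjusted p was 0.0559 in edgeR's test, just above the threshold. In 6 of the 16 alternatives it passed, among them limma voom (adjusted p = 0.0441) and the fit without Input replicate 1 (0.0231). The lowest adjusted p-values were 0.00250 with no filter on low counts, 0.00571 with library sizes from all reads and 0.00919 with the replicate block.

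Ctla4, the competitor of CD28, was read most of the 10. It had 1416, 2167 and 2057 CPM in the Input and 944, 1624 and 1274 CPM in the IP, so that IP replicate 2 lay above Input replicate 1 and the groups overlapped. In edgeR's test a log2 fold change of -0.55 ± 0.22 (SE) had an adjusted p of 0.151. The 95% confidence interval of the ratio of IP to Input was 0.484 to 0.957 before any adjustment for the number of genes. Each IP library lay below the Input library of the same number, but equal numbers are not known to share a lysate. The share of all tested genes with this pattern was not computed. Ctla4 passed in 4 of the 16 alternatives. These were no filter on low counts (adjusted p = 5.16e-05), the replicate block (0.00192) and library sizes from all reads (0.00975). The last was the fit without Input replicate 1, with -0.81 on the log2 scale and an adjusted p of 0.0357.

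Groups that did not overlap, with the IP below the Input, were found for 5 of the 10 genes and for 23.7% of all tested genes (36.5% in either direction), or 28.0% of the 3764 genes with a mean at or above that of Klrg1. None of the 10 had the IP above the Input, against 12.8% and 29.1%. The 5 genes were Pdcd1, Lag3, Havcr2, Tigit and Klrg1. With upper quartile factors the count was 3 (Lag3, Havcr2 and Klrg1), with total counts it was again 5, and with library sizes from all reads in the file it was 9. Over all tested genes the share with the IP below the Input was 19.9%, 21.4% and 36.8% under these scalings.

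Neither costimulatory receptor passed the test. Icos, which encodes a receptor for ICOS ligand, had 397, 653 and 706 CPM in the Input and 222, 482 and 538 CPM in the IP. In both groups replicate 1 was the low one, and the groups overlapped. Icos differed by -0.50 ± 0.32 (SE) on the log2 scale, and edgeR's adjusted p was 0.425. The ratio of IP to Input had a 95% confidence interval of 0.426 to 1.17. As for Ctla4, each IP library lay below the Input library of the same number, with the same limits. Icos passed in 2 of the 16 alternatives, no filter on low counts (adjusted p = 0.0278) and the replicate block (0.0168).

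Cd28, encoding the main costimulatory receptor of naive T cells, had 315, 309 and 331 CPM in the Input. In the IP it had 229, 275 and 341 CPM. IP replicate 3 was the highest of all 6 libraries and IP replicate 1 the lowest. Here the log2 fold change was -0.18 ± 0.18 (SE; edgeR's adjusted p = 0.652). The ratio of IP to Input had a 95% confidence interval of 0.672 to 1.16, the narrowest of the 10 genes on the log2 scale. The value depended on the scaling. With upper quartile factors the sign turned, to a log2 fold change of 0.03. When every read in the file counted towards library size it was -0.70, and edgeR called it depleted (adjusted p = 0.0364).

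The ectonucleotidases did not pass the test either. Entpd1, whose product CD39 removes phosphates from ATP, had 117, 131 and 155 CPM in the Input and 83.5, 154 and 93.9 CPM in the IP. IP replicate 2 stood at the level of the highest Input library and the other IP libraries lay below all of them. Entpd1 stood at -0.28 ± 0.27 (SE) on the log2 scale (edgeR's adjusted p = 0.628), and it did not pass in any of the 16 alternatives.

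Nt5e, whose product CD73 makes adenosine from AMP, was the 1 gene of the 10 with a positive estimate. It had 206, 200 and 206 CPM in the Input and 242, 336 and 144 CPM in the IP. The Input libraries were nearly equal, with a coefficient of variation of 1.57%, while the IP libraries spread on both sides of them with 39.8%. Its log2 fold change of 0.24 ± 0.27 (SE) had an adjusted p of 0.701 in edgeR's test. The ratio of IP to Input had a 95% confidence interval from 0.774 to 1.80. Without IP replicate 2 the log2 fold change was -0.11, and with library sizes from all reads it was -0.29.

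**Figure D2:**
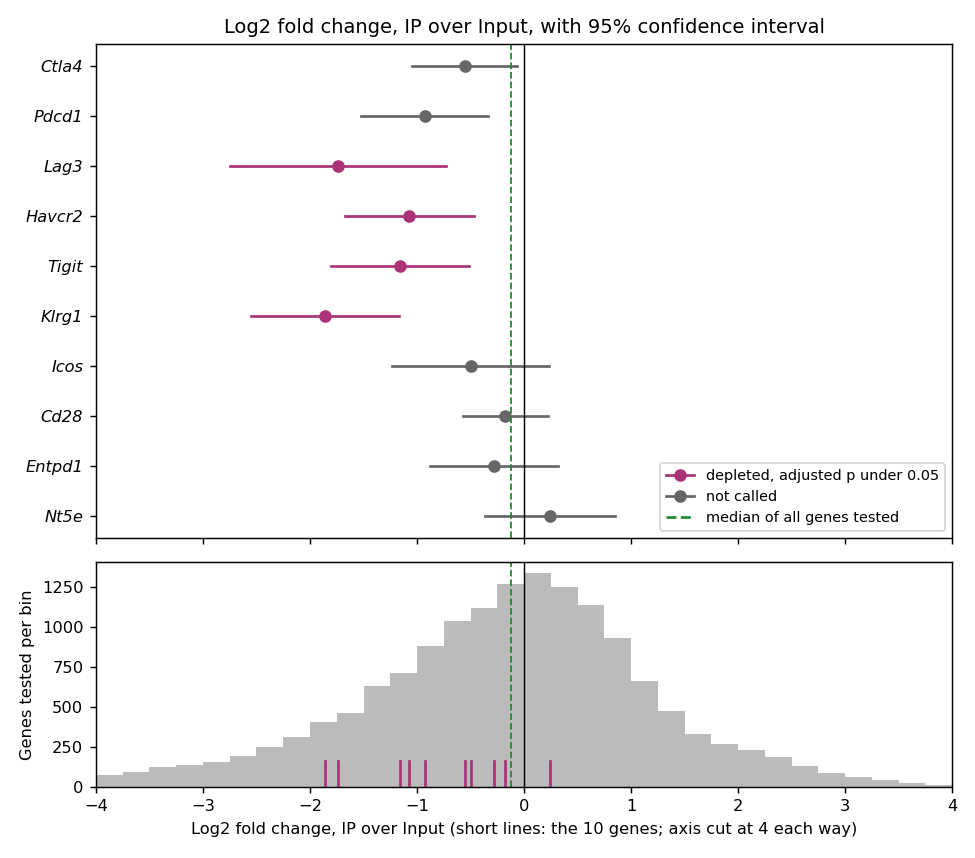
Upper panel: log2 fold change of IP over Input for each gene with its 95% confidence interval, coloured where the adjusted p is under 0.05, with the median of all tested genes as a dashed line. Lower panel: number of tested genes per bin of log2 fold change, with the 10 genes as short lines. The 4 depleted genes lie between -1.86 and -1.07, and the median of all genes at -0.12.

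By role, the 6 inhibitory receptors had a median log2 fold change of -1.12, with 4 of 6 depleted and values from -1.86 to -0.55. The 2 costimulatory receptors stood at -0.50 and -0.18 and the 2 ectonucleotidases at -0.28 and 0.24, with 0 called. The difference between the roles was not tested. The genes were also set against each other within each library. The ratio of the reads of 2 genes in a library does not depend on library size or scaling factors, and gene length cancels when the ratio is set against that of another library. Its change between IP and Input was taken as the difference of the mean log2 ratios. That change comes from the same counts as the fold changes of the 2 genes, and so is no independent support for them. It need not equal the difference of edgeR's 2 estimates.

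Over all 45 pairs of the 10 genes, the ratio had no overlap between the 3 IP and the 3 Input libraries in 23 pairs (51.1%). Over all pairs of the 3750 genes with a mean at or above that of Klrg1 and a read in every library, the share was 56.5%, so the 10 genes gave no larger share than genes of such levels in general. Pairs share genes and are not independent. Permuting the libraries exactly (two-sided) gave p = 0.1 for each of these pairs, which is as low as 3 against 3 libraries can go, and an adjusted p of 0.196 over the 45 pairs. No pair therefore passed. Among the 24 pairs of an inhibitory receptor with a gene of another role the groups did not overlap in 15, among the 15 pairs of inhibitory receptors in 8, and among the 6 other pairs in 0.

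For the 3 neighbours of the CD28 family, the proportions overlapped between the groups. Per read of Icos there were 4.26, 3.37 and 2.37 reads of Ctla4 in IP replicates 1, 2 and 3 and 3.56, 3.32 and 2.91 in the Input replicates. The mean log2 ratio differed by -0.01 between the groups, less than its SD in either. The share of Ctla4 among the reads of the 10 genes was 47.5% ± 0.875 (SD, n = 3) for IP libraries, compared with 47.2% ± 1.73 (SD, n = 3) for Input libraries. Relative to Cd28, Ctla4 had 4.11, 5.90 and 3.74 reads per read in the IP and 4.50, 7.01 and 6.21 in the Input, which overlap.

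Other inhibitory receptors had fewer reads per Ctla4 read in each IP library than in any Input library. Per read of Ctla4 there were 0.0760, 0.0722 and 0.0722 reads of Pdcd1 in the IP libraries and 0.0903, 0.0899 and 0.103 in the Input libraries. The groups did not overlap, as was already so for Pdcd1 alone, and the ratio was 1.28 times higher in the Input. Both genes alone missed the threshold in edgeR's test, and this ratio did not pass the permutation test either. For Tigit the same ratio was 0.128, 0.138 and 0.0877 in the IP against 0.183, 0.181 and 0.179 in the Input, where the libraries were nearly equal. For Klrg1 it was 0.0273, 0.0158 and 0.0133 against 0.0528, 0.0356 and 0.0468, and for Lag3 0.0135, 0.0277 and 0.0384 against 0.0701, 0.0636 and 0.0575. These ratios were 2.48 and 2.61 times higher in the Input. Each of these 4 ratios had the exact permutation p of 0.1 given above.

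**Figure D3:**
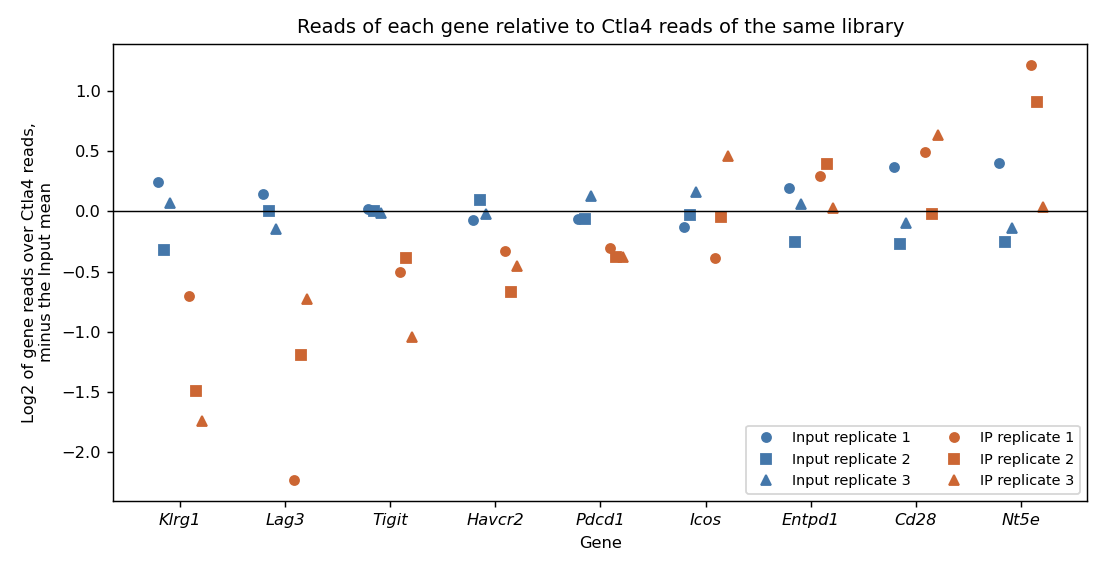
Log2 of the reads of each gene over the Ctla4 reads of the same library, minus the mean of the 3 Input libraries, with 1 point per library. The IP points of Klrg1, Lag3, Tigit, Havcr2 and Pdcd1 lie below all their Input points, and those of Icos, Entpd1, Cd28 and Nt5e overlap with the Input.

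Between the genes of the adenosine pathway, Entpd1 had 0.345, 0.458 and 0.651 reads per read of Nt5e in the IP and 0.569, 0.654 and 0.754 in the Input. IP replicates 1 and 2 lay below all Input libraries and IP replicate 3 among them. The exact permutation test gave p = 0.2, or 0.281 adjusted over the 45 pairs. Lag3 against Nt5e was the pair whose ratio differed most: 0.0527, 0.134 and 0.339 in the IP and 0.483, 0.688 and 0.575 in the Input, 4.31 times higher in the Input on average, with the exact permutation p of 0.1.

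The same library was often the lowest of its group. Input replicate 1 was the lowest Input library for 8 of the 10 genes, all but Cd28 and Nt5e, and IP replicate 1 was the lowest IP library for 7, among them Ctla4, Pdcd1, Lag3, Havcr2 and Icos. IP replicate 3 was the lowest for Tigit, Klrg1 and Nt5e. The coefficient of variation was larger in the IP than in the Input for 8 genes, with Pdcd1 and Havcr2 as the exceptions, and reached 55.8% for Lag3 in the IP.

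**Figure D4:**
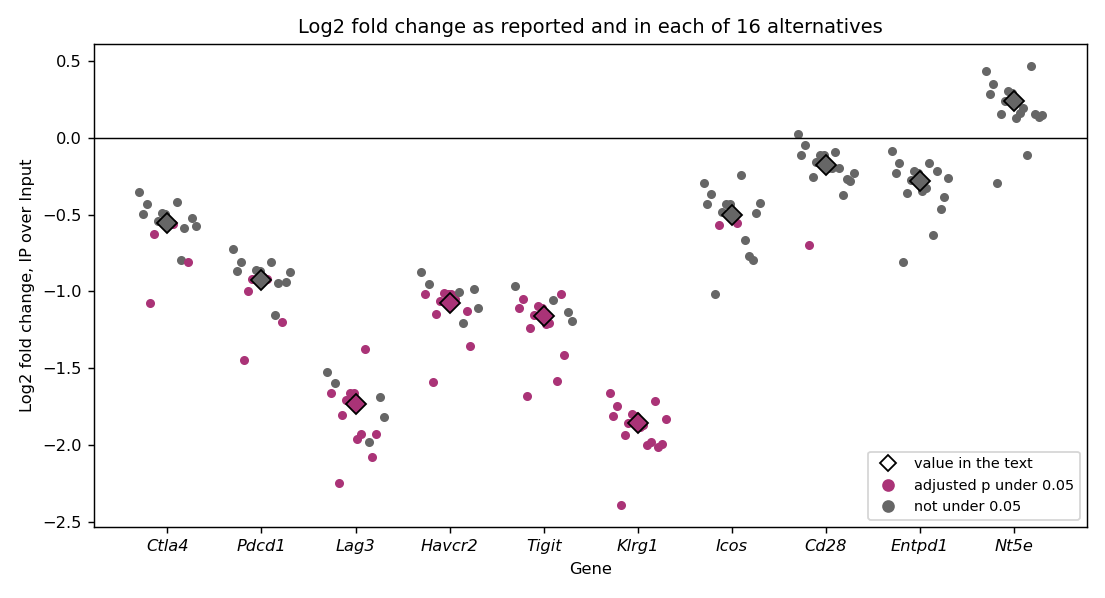
Log2 fold change of IP over Input for each gene as reported (diamond) and under each of 16 alternative settings (points), coloured where the adjusted p is under 0.05. Klrg1 passed in all 16, Tigit in 12, Lag3 in 11, Havcr2 in 10 and Pdcd1 in 6.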

How the data were processed

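RNA of 3 IP and 3 Input libraries was sequenced. Each deposited file holds the raw count of reads for every Ensembl gene ID. The submitters' processing notes name HISAT2 2.1.0, Trimmomatic 0.39, DESeq2 and HTSeq, and mm10 as the build, without saying which step each was for. The annotation release, the strand setting and what was done with duplicates were not given in the sources used here. Left out of library sizes and tests were 92 spike-in IDs and the summary categories of HTSeq. Counts were tested with edgeR 4.0.16 in R 4.3.3 (filterByExpr, TMM, robust dispersion, quasi-likelihood F-test, group as the only term, two-sided) over 15615 genes, with Benjamini-Hochberg adjustment. Standard errors were derived from the F statistics.

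The 10 genes and all lists were chosen with earlier results of these data known. By rule the text names all 10. A list of related receptors, ligands and adaptors and lists of cell type markers were set as symbols, and 0 could be matched, since 0 rows of the reference table hold an Ensembl ID. No sequence was used.

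The test was checked on simulated counts, where it missed most of the smaller changes put in, so a missing call carries little weight. Libraries of a group differed by a chi-square of at least 16.1 per degree of freedom. That is more than counting error alone, so no file repeated the counts of another. It does not show whether the libraries came from different animals or lysates. Alternatives were other scaling, filters, DESeq2 1.42.0, limma voom 3.58.1, a replicate block and each library left out.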

Additional observations from a re-analysis of the deposited data

Results flagged for a closer look

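A value outside the gene counts stood apart between the groups. The share of reads outside annotated features averaged 71.7% in the IP files (range 71.2% to 72.1%) and 50.4% in the Input files (49.6% to 51.6%). Its part in the depletion of Lag3, Havcr2, Tigit and Klrg1 was not tested. Reads assigned to genes averaged 24.8% of an IP file and 38.9% of an Input file. Reads that were neither assigned to genes nor outside annotated features thus also differed in share. When library sizes included every read in the file, not only those outside features, 7 of the 10 genes were depleted, as were 12.5% of all tested genes. Log2 fold changes over all genes then shifted by -0.53 at the median.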

How the results depend on the processing

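Of 160 values of single genes under the 16 alternatives, 129 kept their direction and their side of the threshold, 15 lost the call, 13 gained it and 3 reversed. The reversals were Cd28 with upper quartile factors (0.028) and Nt5e with library sizes from all reads (-0.29) or without IP replicate 2 (-0.11); with 1 library left out Nt5e ranged from -0.11 to 0.47. None of the 10 genes was enriched in any alternative. For the number of the 10 depleted, the share of genes tested in that setting that were depleted follows in brackets. The number was 4 as reported (6.11%), 1 with upper quartile factors (5.13%), 2 with total counts (5.60%) and 7 with library sizes from all reads (12.5%). It was 7 with no filter on low counts (3.29%), 7 with a replicate block (7.01%) and 1 to 6 with 1 library left out (3.26% to 8.73%). Over all tested genes, 676 were enriched as reported, 1081 with upper quartile factors, 160 with library sizes from all reads, 1030 with 1 CPM in every library and 1382 with DESeq2. Leaving out 1 library gave 188 to 999. Depleted genes numbered 954 as reported, 1958 with library sizes from all reads, 2085 with DESeq2, 1715 with limma voom and 563 to 1661 with 1 library left out. The cause was not tested. Library sizes from all reads moved the median log2 fold change of all genes by -0.53. Limma voom moved it by -0.45 and the replicate block by -0.38. Upper quartile factors moved it by 0.20 and DESeq2 by 0.06, for genes tested in both settings. Enriched genes were 41.5% of calls as reported, 57.4% with upper quartile factors, 51.8% with total counts and 7.55% with library sizes from all reads. The labels do not say that equal replicate numbers share a lysate. Deviations of same-numbered libraries correlated at 0.0999, 0.0260 and 0.0242, each IP library best with the Input library of its own number. The replicate block, under which Ctla4 (adjusted p = 0.00192), Icos (0.0168) and Pdcd1 (0.00919) were also depleted, is therefore an alternative here. The alternatives for the list of related genes were not run, for want of matched IDs.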
